A study of Mus musculus with 15 samples.

Results

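Matrix metalloproteases, ADAM proteases and their tissue inhibitors were followed across 5 related mouse mammary cell lines. The set comprised 10 genes of 18193 measured: the secreted proteases Mmp13, Mmp10, Mmp3 and Mmp9, the membrane-anchored protease Mmp14, the transmembrane ADAMs Adam8 and Adam19, and the inhibitors Timp1, Timp2 and Timp3. Members were chosen by name, and every probe set whose only gene symbol was one of these 10 was taken, 22 of 34945. Where a gene had several probe sets, the one of highest average signal stands for it, and the others are described beside it.

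Matrix metalloproteases are zinc endopeptidases that are made as inactive proenzymes and, once activated, cleave collagens, other matrix proteins and many soluble or surface proteins. ADAMs are related transmembrane proteases that cut growth factors, cytokines and adhesion receptors from the cell surface. Tissue inhibitors of metalloproteases, the TIMPs, bind the active site of these enzymes and block it. In the mammary gland the balance of proteases and inhibitors shapes duct branching and involution, and in breast tumours it is studied for its part in invasion and spread. Transcript levels, as measured here, say nothing of activation or inhibition of the proteins.

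NMuMG is a wild-type, non-tumorigenic epithelial line from normal mouse mammary gland. E1KD is NMuMG in which hnRNP E1, an RNA-binding protein encoded by Pcbp1, was silenced; it had no selection in mice. M1P was taken from a mammary fat pad tumour formed by E1KD, L1P from the lungs of mice injected in the fat pad with E1KD, and L2P from the lungs of mice injected with L1P; the hosts were NOD/SCID mice, which lack functional B and T lymphocytes. M1P, L1P and L2P therefore carry the silencing as well as an in vivo passage, and all lines were kept in the same medium. Each line was measured on 3 Affymetrix arrays, 15 in all. No silencing control line was used here, each line was derived once, and whether E1KD is a clone is not stated. Nothing in the labels tells separate cultures from repeat preparations within a line, so the p-values reflect only array-to-array spread, possibly technical.

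Pcbp1 had a log2 signal of 12.57 to 12.76 on the NMuMG arrays and 7.95 to 10.09 on the 12 arrays of silenced lines. Within each line except M1P the correlation between arrays was 0.979 to 0.996; in M1P it went down to 0.93. The differences between the 3' and 5' probe sets of the transferrin receptor control were lowest on M1P arrays 1 and 2. They were 1.43 and 1.72 log2 units there, against 1.91 to 2.60 elsewhere. The Gapdh and beta-actin controls did not set these 2 arrays apart. For Gapdh L2P array 3 was lowest (0.19, against 0.25 and 0.27), and for beta-actin L2P array 1 equalled M1P array 2 (0.68). By the median of all genes, M1P lay 0.20 above E1KD. M1P array 1 had the highest median signal (4.26) but the lowest upper quartile (6.33, against 6.64 to 6.86 on the other arrays). The part of this narrower scale in the M1P results was not tested. Results on M1P are therefore also given from its array 3 alone, whose spread is then assumed to be that of the other lines. Of 8 epithelial markers, 5 had a line mean above the median gene level of 5.45 in NMuMG and M1P, and 4 in each other line. Krt8, Krt18 and Krt19 had line means from 12.60 to 14.17, and Epcam from 5.03 to 5.57. Krt5 lay at 5.10 in M1P and 4.57 in L1P. In L2P against NMuMG 3 of the 8 fell (8.68% of all genes) and none rose. They were Krt7, Krt8 by 0.38 (limma, adjusted p = 0.0493) and Krt18 by 0.52 (0.0156). With 1 array left out these reached 0.209 for Krt8 and 0.0824 for Krt18. The luminal keratin Krt7 fell from 10.27 in NMuMG to 4.81 in E1KD (limma, adjusted p = 2.22e-07). None of 8 fibroblast and none of 6 endothelial markers had a line mean above the median gene level of 5.45 in any line, and the pan-leukocyte gene Ptprc lay at 2.46 to 2.63. The 8 leukocyte markers summed to 9.69 to 11.24 over all arrays, most of it Cd14. In L1P and L2P 2 of them had a line mean above the median gene level, and in each other line 1. In L2P against NMuMG 1 rose (5.56% of all genes) and 1 fell (8.68%). Cd68 rose from 5.02 to 6.18 (limma, adjusted p = 0.0324, up to 0.114 without any one array of these 2 lines). Cd14 fell from 10.89 to 9.84 (0.015). None of the 8 passed in L1P or L2P against E1KD. With 1 array left out, up to 2 of the 8 passed in L2P against E1KD and none in L1P. The 5 neutrophil markers summed to 9.40 to 10.17 in NMuMG and 6.21 to 8.20 in the other lines; S100a8 and S100a9, which epithelia also express, fell in E1KD by 3.70 and 4.02, while Elane, Mpo and Camp had line means of 3.52 to 4.83. The fibroblast markers summed to a log2 signal of 6.60 to 7.59 in M1P against 6.33 to 6.69 in the other lines, with Col1a2 higher in M1P than in E1KD by 1.09 (limma, adjusted p = 0.0464; 0.39 and 0.202 with array 3 alone, and up to 0.129 without any one array of another line). The part of these markers in the results below was not tested. In RNA from a whole culture, fewer cells of a type and less RNA per cell cannot be told apart.

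After ±, a level carries the SD of its 3 arrays and a log2 difference its standard error. A gene is said to have risen or fallen where limma's moderated test, adjusted by Benjamini and Hochberg over all 18193 genes, gave a p under 0.05. Across the 5 lines 7 of the 10 genes differed by the moderated F test (31.8% of all genes did): Mmp10, Mmp13, Mmp14, Adam8, Adam19, Timp1 and Timp2. Mmp3, Mmp9 and Timp3 did not pass.

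**Figure D1:**
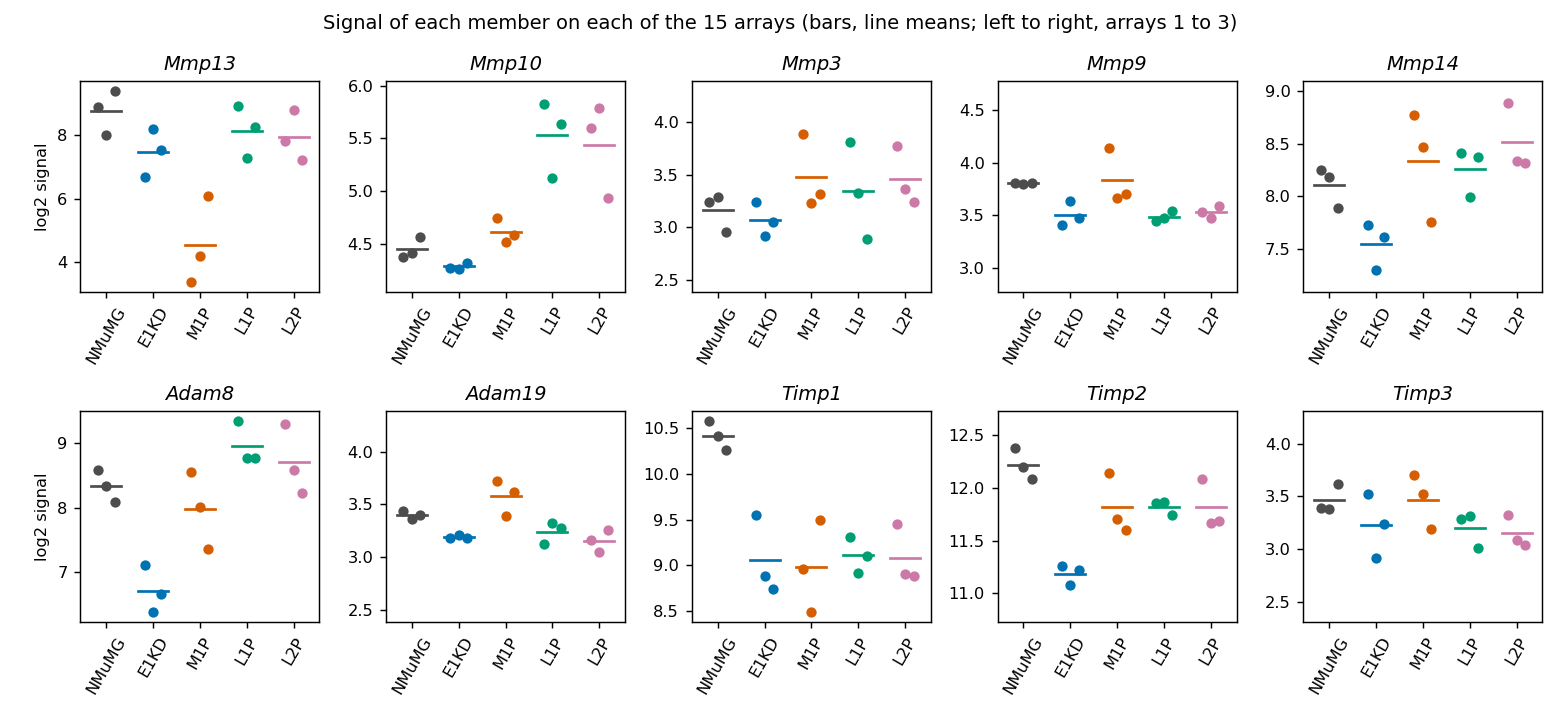
Log2 signal (vertical axis) of the 10 genes on every array, by line; points are arrays 1 to 3 from left to right and bars are line means. Mmp13 was lowest on the 3 M1P arrays, Mmp10 highest on the 6 lung-line arrays, Adam8 lowest on the 3 E1KD arrays, and Timp1 highest on the NMuMG arrays.

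E1KD against NMuMG compares the silenced line, before passage in mice, with its parent. Without a silencing control line, silencing of hnRNP E1 and derivation of the line cannot be told apart. In E1KD against NMuMG all 10 differences were below 0, with a median of -0.43 against -0.07 over all genes, and the arrays of the 2 lines did not overlap for 7 of the 10 genes (36% of all genes). Among the 10, Mmp3, Mmp9, Adam19 and Timp3 had low signals that were not separated from background. Mmp9 and Adam19 were among the genes without overlap. Adam8, Timp1 and Timp2 fell, 3 of 10, where 9.49% of all genes passed in either direction and 6.49% fell. Timp2 passed only on its representative probe set. No member rose.

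The comparisons of M1P, L1P and L2P with E1KD ask what passage in mice added. In M1P 5 of 10 members passed (27.6% of all genes): Mmp13 fell (9.86% of genes did) and Mmp14, Adam8, Adam19 and Timp2 rose (17.7%). In L1P 2 of 10 passed (2.48%), Mmp10 and Adam8, and both rose (1.19%). In L2P 4 of 10 passed (3.78%), and Mmp10, Mmp14, Adam8 and Timp2 all rose (2.14%). The members' median differences were 0.35, 0.45 and 0.43, against 0.20, -0.03 and 0.00 over all genes. All 3 comparisons share the E1KD arrays. The count in M1P went to 0 without E1KD array 2, to 2 without E1KD array 3, to 1 without M1P array 1 and to 0 with M1P array 3 alone. The count in L2P went to 2 when any array of E1KD, L1P, L2P or NMuMG was left out, the calls of Mmp14 and Timp2 being the ones lost.

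**Figure D2:**
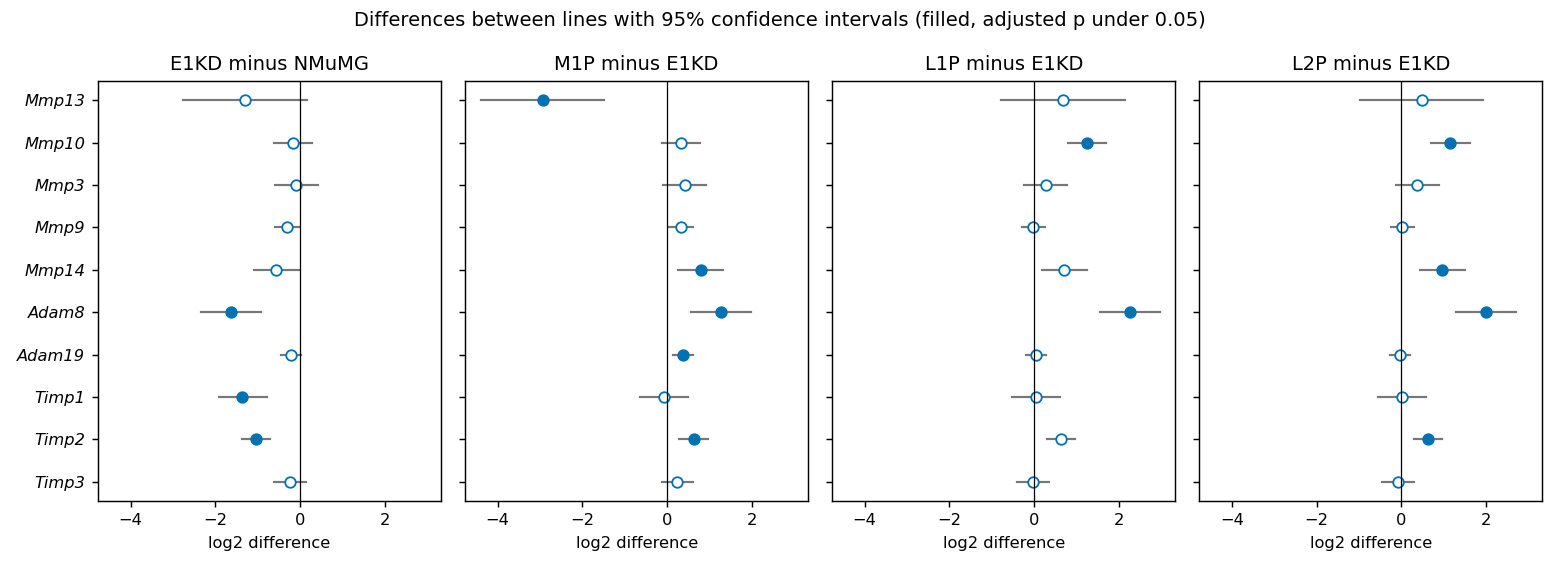
Log2 differences (horizontal axis) of the 10 genes for 4 pairs of lines, with 95% confidence intervals as lines; filled points passed at an adjusted p under 0.05. Adam8 lay to the left of 0 in E1KD against NMuMG (-1.63) and to the right in M1P, L1P and L2P against E1KD (1.26, 2.25 and 1.99), and Mmp13 stood out only in M1P against E1KD (-2.94).

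Mmp13, or collagenase-3, is the main interstitial collagenase of the mouse and cleaves fibrillar collagens. On the 3 NMuMG arrays its log2 signal was 8.90, 8.03 and 9.42, and on the E1KD arrays 6.67, 8.22 and 7.55. It was 3.36, 4.18 and 6.07 in M1P. In L1P it was 8.93, 7.28 and 8.26, and in L2P 7.81, 8.82 and 7.23. Every M1P array lay below every array of the other 4 lines, while the arrays of NMuMG, E1KD, L1P and L2P overlapped. M1P was also the least uniform line for this gene, with an SD of 1.39 against 0.70 to 0.83 elsewhere.

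Mmp13 fell in M1P against E1KD by 2.94 ± 0.67 (adjusted p = 0.0117), a 7.7-fold difference, and against NMuMG by 4.25 ± 0.67 (0.00111), 19-fold. With M1P as array 3 alone the difference from E1KD was -1.41 (0.308) and that from NMuMG -2.71 (0.044). Without E1KD array 2 the former was -2.57 (0.0604). The other 4 lines followed the order NMuMG, L1P, L2P, E1KD, and no neighbours in it passed: L1P lay 0.62 below NMuMG (0.577), L2P 0.20 below L1P (1) and E1KD 0.48 below L2P (0.987). E1KD was 1.30 ± 0.67 below NMuMG (0.298), with a 95% interval from -2.76 to 0.16 that also holds a more than 2-fold decrease.

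Set directly against each other, the lung lines were above the tumour line. Mmp13 was higher in L1P than in M1P by 3.62 ± 0.67 (adjusted p = 0.00339, 12.3-fold) and in L2P by 3.42 ± 0.67 (0.0053, 10.7-fold), and all lung-line arrays exceeded all M1P arrays. With only the 2 lines compared in the model neither passed (0.0681 for L1P and 0.109 for L2P). With array 3 as the only M1P array the differences were 2.09 (0.109) and 1.89 (0.154).

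The genes whose pattern over the 15 arrays was most like that of Mmp13, among 4437 genes whose line means span at least 1 log2 unit, were Znhit6, Mre11a and Mrc1. Znhit6 acts in assembly of small nucleolar ribonucleoproteins, Mre11a in DNA double-strand break repair, and Mrc1 encodes the mannose receptor. Their Pearson correlations with Mmp13 were 0.947, 0.909 and 0.908. Over the 13 arrays without M1P arrays 1 and 2 they were 0.79, 0.626 and 0.684. The arrays fall into 5 lines and share the deviation of M1P, so these are descriptions only.

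Mmp10, or stromelysin-2, degrades proteoglycans, laminin and fibronectin and can activate other proenzymes. Its log2 signal was 4.37, 4.41 and 4.56 on the NMuMG arrays, 4.27, 4.26 and 4.32 on the E1KD arrays and 4.74, 4.52 and 4.58 on the M1P arrays. In L1P it was 5.83, 5.12 and 5.64, and in L2P 5.60, 5.79 and 4.93. All 6 lung-line arrays lay above all 9 others.

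Relative to E1KD, Mmp10 rose by 1.24 ± 0.21 in L1P (adjusted p = 0.00467, 2.36-fold) and by 1.15 ± 0.21 in L2P (0.00585, 2.23-fold), and relative to NMuMG by 1.08 (0.00319) and 0.99 (0.0056). These 4 calls held in all 23 alternatives run for the gene. The order of the means was L1P, L2P, M1P, NMuMG, E1KD. Neither L2P against L1P (-0.09, 95% interval -0.54 to 0.37) nor E1KD against NMuMG (-0.16, interval -0.61 to 0.29) passed. In M1P the difference from E1KD was 0.33 ± 0.21 (0.23). Mmp10 was higher in L1P than in M1P by 0.92 ± 0.21 (0.00844; 0.0788 with M1P array 3 alone) and in L2P by 0.83 ± 0.21 (0.015; 0.111 with M1P array 3 alone and 0.0748 without L2P array 2). On signals this low, fold differences are compressed.

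Mmp3, or stromelysin-1, and Mmp9, or gelatinase B, stayed at low signals in every line. Mmp3 ranged from 2.89 to 3.89 over the 15 arrays with line means of 3.07 in E1KD to 3.48 in M1P, and no pair of lines passed. Mmp9 ranged from 3.41 to 4.14, and its 2 probe sets had line means of 3.48 to 3.83 and 3.13 to 3.68. Of the 10 pairs only L1P against M1P passed for Mmp9 (-0.35 ± 0.13, adjusted p = 0.0458), and the call was lost with M1P array 3 alone (-0.21, 0.364) and on leaving out any of 12 single arrays (0.0509 to 0.188), every array but M1P 2, M1P 3 and L2P 1. No detection calls were used, so these signals were not separated from background, and an order among their lines is not read.

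Mmp13, Mmp3 and Mmp10 lie in 1 run of 10 matrix metalloprotease genes on chromosome 9. In RefSeq's gene order it reads Mmp13, Mmp12, Mmp1b, Mmp3, Mmp1a, Mmp10, Mmp8, Mmp27, Mmp20 and Mmp7, with Dcun1d5 before it and Tmem123 after it, and 9 of the 10 were measured here. Mmp12, Mmp1b, Mmp1a, Mmp8 and Mmp20 had line means between 2.22 and 2.97, and Mmp7 between 4.62 and 5.20. Among the 9, Mmp10 was the gene that rose in L1P and L2P against E1KD, and Mmp13 the gene that fell in M1P. The 2 nearest genes on each side of the run also had lower means in M1P than in E1KD. Birc2, an inhibitor of apoptosis, fell by 1.96 ± 0.53 (limma, adjusted p = 0.0216; up to 0.0879 without E1KD array 2 or M1P array 1). Dync2h1, a ciliary dynein, fell by 0.91 ± 0.27 (0.0286; up to 0.121 without E1KD array 2, E1KD array 3 or M1P array 2). Tmem123 differed by -1.56 ± 0.60 (0.0656) and Dcun1d5 by -0.30 ± 0.14 (0.12). With M1P array 3 alone the differences were -0.66, -0.93, -0.22 and -0.05, and none passed (0.148 to 0.885).

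The promoters of these 3 members are shown because the genes share a cluster and an arrangement of motifs. Mmp13 and Mmp10 had different patterns over the lines, while Mmp3 stayed at low signals and no pair of lines passed for it. The 150 bases before each annotated start follow, 5′ to 3′, from RefSeq's GRCm38.p6 annotation, all on the plus strand (Mmp13 chr9:7272364-7272513, Mmp3 chr9:7445672-7445821, Mmp10 chr9:7502192-7502341); capitals mark the AP-1 motif and the TATA motif.
Mmp13: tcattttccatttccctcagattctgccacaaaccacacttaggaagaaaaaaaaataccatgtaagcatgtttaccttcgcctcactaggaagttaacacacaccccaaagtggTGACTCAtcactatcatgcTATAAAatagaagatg
Mmp3: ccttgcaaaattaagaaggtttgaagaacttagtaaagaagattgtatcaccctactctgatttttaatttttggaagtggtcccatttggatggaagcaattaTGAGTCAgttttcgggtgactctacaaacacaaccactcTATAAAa
Mmp10: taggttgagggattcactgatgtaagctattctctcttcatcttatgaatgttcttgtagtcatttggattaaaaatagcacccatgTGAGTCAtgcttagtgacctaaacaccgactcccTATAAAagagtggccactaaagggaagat
In all 3 an AP-1 motif stands upstream of a TATA motif. The AP-1 motif (TGAGTCA, or TGACTCA on the other strand) began at -35 from the start in Mmp13, -46 in Mmp3 and -63 in Mmp10, and the TATA motif (TATAAA, or TTTATA) at -16, -7 and -29.

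Windows from 250 bases before to 50 after the annotated start were found for 9 members, 11 windows in all. The AP-1 letters were present in 5.2% of 32851 such windows of all genes and the TATA letters in 13.6%. Among the members, AP-1 letters were also found at 1 of 3 annotated starts of Adam19, and TATA letters in none besides Mmp13, Mmp3 and Mmp10. Other genes of the chromosome 9 run also held both in 1 window: Mmp1a, Mmp1b, Mmp7 and Mmp12. Mmp8 and Mmp20 held TATA letters only, and Mmp27 held neither. The pair of motifs was therefore not particular to the 3 members. The PEA3 motif of ETS factors (AGGAAG, or CTTCCT) was present in 35.4% of all windows and in those of Mmp3, Mmp13, Mmp14, Timp1, Timp3 and 1 of Adam19. The motifs did not overlap one another in the windows shown. Matches of letters are descriptions of sequence and do not show binding.

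**Figure D3:**
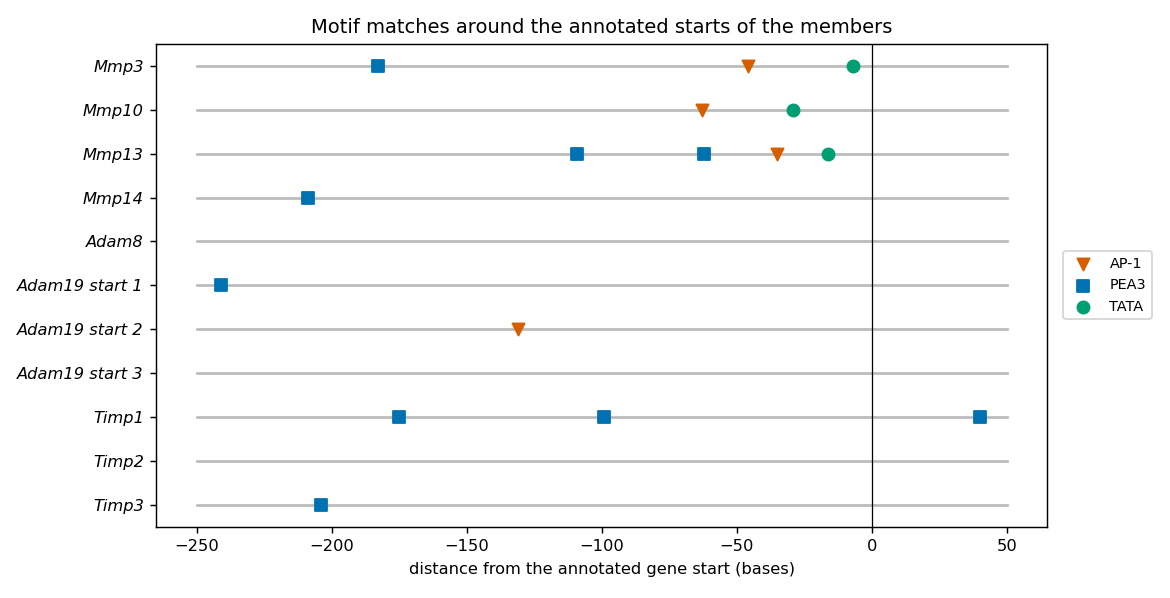
Matches to the AP-1 (triangles), PEA3 (squares) and TATA (circles) letters in windows around the annotated starts of 9 members, on either strand; the horizontal axis is distance from the start in bases. Mmp3, Mmp10 and Mmp13 each held an AP-1 match (at -46, -63 and -35) followed by a TATA match.

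AP-1 is a dimer of Fos and Jun family proteins, and ETS factors bind beside it in many metalloprotease promoters. Fos had signals of 5.93, 6.13 and 6.15 on the NMuMG arrays, and on the other 12 arrays 3.51 to 4.59. Fos fell in E1KD against NMuMG by 1.90 ± 0.22 (adjusted p = 0.000104). Jun moved the other way, from 5.97 ± 0.21 in NMuMG to 7.21 ± 0.45 in E1KD (a rise of 1.23 ± 0.23, 0.00423), 8.38 ± 0.44 in M1P, 7.96 ± 0.10 in L1P and 8.06 ± 0.16 in L2P. Of 12 AP-1 and ETS genes measured, 1 rose (3% of all genes did) and 2 fell (6.49%) in E1KD against NMuMG. The third was the epithelial ETS factor Elf3 (-1.17, adjusted p = 0.0106, and 0.0585 without E1KD array 2). In M1P against E1KD only Jun passed (1.18, 0.00672; 0.69 and 0.18 with M1P array 3 alone, where Fos fell), and in L1P and L2P none did, although Jun rose in both with M1P as array 3 alone. The median difference of the list in E1KD against NMuMG was 0.08, against -0.07 over all genes.

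Mmp14, or MT1-MMP, is a membrane-anchored collagenase that also activates the proenzyme of the gelatinase Mmp2. Its log2 signal was 8.25, 8.18 and 7.89 in NMuMG and 7.73, 7.30 and 7.61 in E1KD. In M1P it was 8.77, 8.47 and 7.76, in L1P 8.41, 7.99 and 8.37, and in L2P 8.89, 8.34 and 8.32. Every E1KD array lay below every array of the other lines. The order of the means was L2P, M1P, L1P, NMuMG, E1KD, and among the first 4 no pair passed.

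E1KD lay 0.56 ± 0.24 below NMuMG for Mmp14 (adjusted p = 0.204). Relative to E1KD, Mmp14 rose by 0.79 ± 0.24 in M1P (0.0338) and by 0.97 ± 0.24 in L2P (0.0448, 1.96-fold), and lay 0.71 ± 0.24 higher in L1P (0.224). The M1P call was lost with M1P array 3 alone (0.21, 0.716) and without E1KD array 2 (0.66, 0.127), E1KD array 3 (0.82, 0.07), M1P array 1 (0.57, 0.137) or M1P array 2 (0.72, 0.0717). In L2P it was lost on leaving out any array except M1P 1 and M1P 3, at adjusted p from 0.0518 to 0.199, and with the mean of the 3 probe sets (0.71, 0.0902). The other 2 probe sets of Mmp14 moved the same way in L2P, by 0.80 and 0.35.

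Among the 10 genes Adam8 had the widest span of line means after Mmp13, 2.25 log2 units. It encodes a transmembrane protease known from leukocytes and osteoclasts that sheds adhesion receptors, and it has been linked to invasion in breast cancer. Signals were 8.59, 8.34 and 8.08 on the NMuMG arrays and 7.10, 6.37 and 6.65 on the E1KD arrays. M1P gave 8.56, 8.01 and 7.35, L1P 9.35, 8.77 and 8.77, and L2P 9.30, 8.58 and 8.23. All E1KD arrays lay below all others, and all L1P arrays lay above all NMuMG and M1P arrays.

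Adam8 fell from NMuMG to E1KD by 1.63 ± 0.33 (adjusted p = 0.00594, 3.09-fold). From E1KD it rose by 2.25 ± 0.33 in L1P (0.00158, 4.77-fold) and by 1.99 ± 0.33 in L2P (0.00279, 3.98-fold). These 3 calls held under all 24 alternatives, with adjusted p up to 0.0372. In M1P Adam8 rose by 1.26 ± 0.33 (0.0183), a call lost with M1P array 3 alone (0.65, 0.378) and without E1KD array 2 (1.09, 0.0831), E1KD array 3 (1.24, 0.0515) or M1P array 1 (0.97, 0.0685).

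The order of the Adam8 means was L1P, L2P, NMuMG, M1P, E1KD, and only the last step passed. L1P was 0.63 ± 0.33 above NMuMG (adjusted p = 0.235, 95% interval -0.08 to 1.33) and L2P 0.37 above it (0.535). L1P was 0.99 ± 0.33 above M1P (0.0322), a call lost without any one of the L1P arrays (0.0522 to 0.102), without M1P array 2 (0.0539) and without M1P array 3 (0.68, 0.082). L2P was 0.73 ± 0.33 above M1P (0.0964), and with the replicate number as a block the adjusted p was 0.00991. Deviations of same-numbered arrays correlated by 0.75, 0.13 and 0.69 between L2P and M1P. Between E1KD and NMuMG these correlations were -0.06, -0.5 and -0.19. The lines share only a replicate number, so pairing of their arrays is not established and the lower p is not relied on.

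The patterns most like that of Adam8 over the 15 arrays were those of Gpr180, Msln and Psme1, with Pearson correlations of 0.909, 0.909 and 0.900, and of 0.917, 0.92 and 0.908 over the 13 arrays without M1P 1 and 2. Msln encodes the surface protein mesothelin and Psme1 a subunit of the proteasome activator. Among the other members Mmp14 was nearest to Adam8 (0.85 over 15 arrays, 0.91 over the 13 without M1P 1 and 2), and both had their lowest line mean in E1KD.

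Adam19, which sheds neuregulins and acts in heart development, had signals between 3.05 and 3.72 on all arrays with its representative probe set. It rose in M1P against E1KD by 0.38 ± 0.11 (adjusted p = 0.0267) and fell in L1P and L2P against M1P by 0.34 (0.0316) and 0.42 (0.0182). With M1P array 3 alone these were 0.43 (0.101), -0.38 (0.114) and -0.46 (0.07). The first call was also lost without any one E1KD array (0.0589 to 0.081) or without M1P array 1 (0.0923). The second was lost without L1P array 1 (0.0997), L1P array 3 (0.0746), M1P array 1 (0.113) or M1P array 3 (0.0515), and the third without L2P array 2 (0.0811) or M1P array 1 (0.0616). The differences were small on a low signal.

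Timp1, a secreted inhibitor of most matrix metalloproteases that also has growth-promoting activity, was lower in all silenced lines. Its signal was 10.58, 10.41 and 10.26 in NMuMG and 9.55, 8.89 and 8.74 in E1KD. M1P gave 8.96, 8.49 and 9.50, L1P 9.31, 8.92 and 9.10, and L2P 9.45, 8.91 and 8.89. Each NMuMG array lay above all 12 arrays of the other lines, which overlapped one another.

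Timp1 fell by 1.36 ± 0.26 in E1KD (adjusted p = 0.00465, 2.56-fold), by 1.43 ± 0.26 in M1P (0.00294), by 1.31 ± 0.26 in L1P (0.00394) and by 1.34 ± 0.26 in L2P (0.0035), each against NMuMG. With M1P array 3 alone the M1P difference was -0.92 (0.0925). The silenced lines lay between 8.98 and 9.11 on average. None of the 3 passaged lines passed against E1KD, with 95% intervals of -0.64 to 0.49 for M1P, -0.52 to 0.61 for L1P and -0.54 to 0.59 for L2P.

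Timp2 both inhibits metalloproteases and, bound to Mmp14, helps to present the Mmp2 proenzyme for activation. Its representative probe set had signals of 12.38, 12.20 and 12.09 in NMuMG and 11.26, 11.08 and 11.22 in E1KD. In M1P it gave 12.14, 11.71 and 11.60, in L1P 11.86, 11.87 and 11.74, and in L2P 12.09, 11.67 and 11.69. E1KD lay below all other arrays, and the 3 passaged lines had the same mean of 11.82.

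On this probe set Timp2 fell from NMuMG to E1KD by 1.04 ± 0.16 (adjusted p = 0.000855). It rose from E1KD by 0.63 ± 0.16 in M1P (0.0157) and in L2P (0.0405), and lay 0.63 ± 0.16 higher in L1P (0.0533). The L2P call was lost without any one array of NMuMG, E1KD, L1P or L2P (0.0515 to 0.172), and the M1P call with M1P array 3 alone (0.42, 0.223), without E1KD array 2 (0.58, 0.0708) or without M1P array 1 (0.47, 0.0519).

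The 6 probe sets of Timp2 did not give the same picture. From NMuMG to E1KD the other 5 differed by -0.24 to -0.40 and none passed (adjusted p over all probe sets 0.215 to 0.7). With the mean of all probe sets the difference was -0.42 (0.166), and with the most variable probe set -0.24 (0.684). In L2P against NMuMG the representative lay 0.40 lower, whereas 4 of the other 5 lay 0.16 to 0.50 higher and the fifth 0.13 lower. The step from E1KD to M1P was above 0 on all 6, by 0.30 to 0.88, and passed on 3. A decrease of Timp2 of 1 log2 unit from NMuMG to E1KD thus rests on 1 of 6 probe sets.

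**Figure D4:**
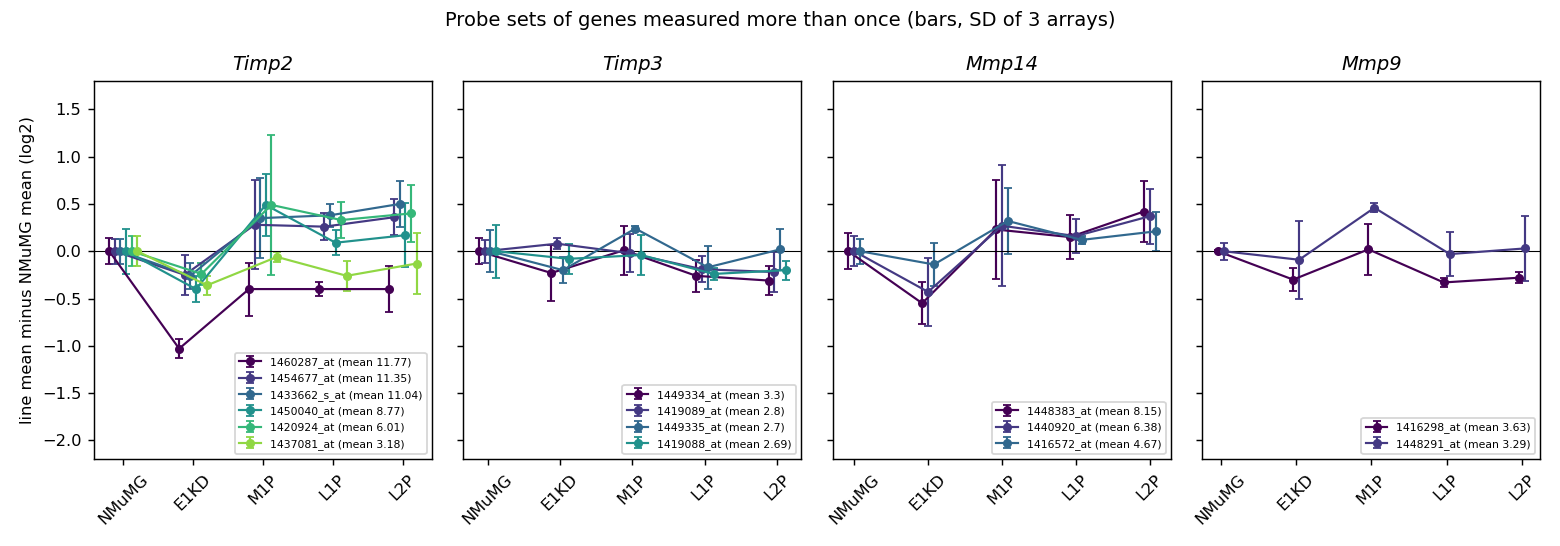
Line means of every probe set of Timp2, Timp3, Mmp14 and Mmp9 minus that probe set's NMuMG mean (vertical axis, log2); bars are the SD of 3 arrays. For Timp2 the representative probe set drops to -1.04 in E1KD while the other 5 stay between -0.24 and -0.40; the 3 Mmp14 probe sets run alongside each other.

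Timp3, a matrix-bound inhibitor that also blocks Adam17, stayed between 2.92 and 3.70 on its representative probe set, and none of the 10 pairs passed. Its other 3 probe sets had line means of 2.52 to 2.96. As for Mmp3 and Mmp9, a low signal was not separated from background.

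L1P and L2P differ by a second round of passage. None of 10 members passed between them, at the adjusted or the unadjusted threshold, where 0.143% of all genes passed with limma. The 95% intervals leave room for differences of up to 0.96 in Adam8 and 1.66 in Mmp13. Against M1P, 5 members passed in L1P (39.5% of all genes) and 3 in L2P (30.4%). Against NMuMG, 2 passed in M1P (11.8%), Mmp13 and Timp1, and 2 each in L1P (14.8%) and L2P (14.2%), Mmp10 and Timp1.

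Other members of the protease families were then counted, with medians beside those of all genes. Of 13 other matrix metalloproteases measured, none passed in E1KD against NMuMG (median 0.01 against -0.07) or L1P against E1KD. In L2P against E1KD 1 rose (2.14% of all genes did), the membrane type Mmp24, by 0.75 ± 0.15 (adjusted p = 0.00978). Its signal was 6.60, 6.26 and 6.05 on the L2P arrays and 5.47 to 5.61 on the NMuMG, E1KD and L1P arrays, with no overlap. In M1P its mean was 5.93, and L2P against M1P did not pass. Of 10 other ADAMs, 1 fell in E1KD against NMuMG, the non-catalytic Adam23 (-0.66 ± 0.16, 0.0203; up to 0.108 without NMuMG array 1, NMuMG array 2 or E1KD array 2). Of 15 ADAMTS proteases, 1 rose there, Adamts6 (0.85 ± 0.23, 0.0308, up to 0.129 without NMuMG 1, NMuMG 2, E1KD 1 or E1KD 2). In that comparison 3% of all genes rose and 6.49% fell. None of either family passed in L1P or L2P against E1KD; with M1P as array 3 alone Adamts6 and Adamts10 fell in both and Adamts4 rose in L2P.

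In M1P against E1KD more family genes passed, as did more of all genes. Adam23 rose by 0.83 ± 0.16 (adjusted p = 0.00614), Adamts4, an aggrecanase, rose by 1.03 ± 0.28 (0.0215), and Adamts6 fell by 0.98 ± 0.23 (0.0123). Adam17, the sheddase of tumour necrosis factor, fell by 1.36 ± 0.42 (0.0337). In all, 1 of 13 matrix metalloproteases rose, 2 of 10 ADAMs rose and 1 fell, and 4 of 15 ADAMTS genes rose and 1 fell. Of all genes 17.7% rose and 9.86% fell. The medians of these families were 0.23, 0.31 and 0.19 against 0.20 over all genes. With M1P array 3 alone none of these passed, and the differences were 0.53 for Adam23, 0.43 for Adamts4, -0.58 for Adamts6 and -0.46 for Adam17. Leaving out 1 array at a time moved the counts between 0 and 4, 1 and 7, and 1 and 6. Adamts4 lost its call without E1KD array 2 or M1P array 1 (up to 0.097) and Adam17 without any one E1KD array or M1P array 1 (up to 0.0985).

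**Figure D5:**
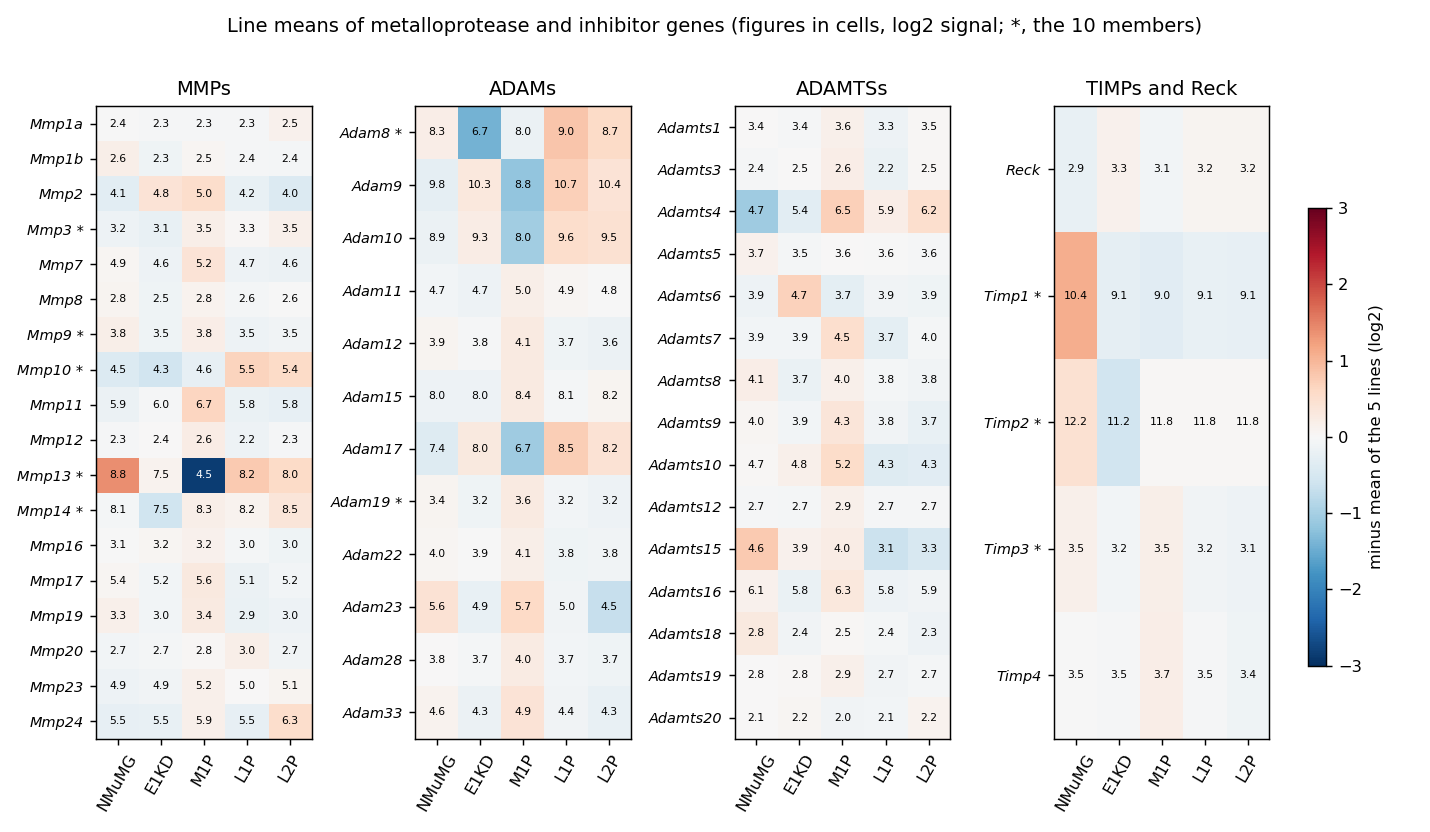
Line means (numbers in cells, log2 signal) of the measured metalloprotease and inhibitor genes; colour is the line mean minus the mean of the 5 lines for that gene, so colours compare lines within a gene and not genes with each other. The 10 genes described are marked with an asterisk; Mmp13 in M1P is the deepest blue cell.

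Surface partners, namely tetraspanins that guide Adam10, the Adam17 regulators Rhbdf1 and Rhbdf2, and binding partners such as Cd44 and Bsg, were counted as a list of 11. Of these, 5 fell (6.49% of all genes did) and none rose (3%) in E1KD against NMuMG. The median was -0.57 against -0.07 over all genes. Tspan15, a tetraspanin that directs Adam10, had signals of 9.69, 9.68 and 9.32 in NMuMG and 7.28, 7.52 and 7.65 in E1KD, and fell by 2.08 ± 0.20 (adjusted p = 2.27e-05). It was still lower than NMuMG in L1P (-1.75, 6.52e-05) and L2P (-1.87, 3.32e-05). Tspan5 fell by 0.84 ± 0.16 (0.00465). Tspan14 fell by 0.88 ± 0.23 (0.027; up to 0.115 without NMuMG 2, NMuMG 3 or any one E1KD array) and, against E1KD, rose in L2P by 1.12 ± 0.23 (0.0133; up to 0.0596 without E1KD 2, E1KD 3 or L2P 1). Leaving out 1 array at a time, 2 to 6 of the 11 passed in E1KD against NMuMG.

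Activators of proenzymes, which include furin-type convertases and the plasminogen system, gave few differences outside M1P. Of 12, only the transmembrane serine protease Tmprss2 fell in E1KD against NMuMG (-0.99 ± 0.20, adjusted p = 0.00732), where 6.49% of all genes fell. None passed in L1P or L2P against E1KD. In M1P against E1KD 5 of 12 rose (17.7% of all genes did), with a median of 0.42 against 0.20 over all genes. Among them were Plat, the tissue plasminogen activator (0.95 ± 0.23, 0.0136), the convertase Furin (0.85 ± 0.21, 0.0162) and the convertase Pcsk6 (0.83 ± 0.25, 0.0321). With M1P array 3 alone none of the 12 passed (0.34, 0.46 and 0.26 for these 3), and without E1KD array 2 none of these 3 did. Of 4 other inhibitors, Timp4, Reck, A2m and Tfpi2, none passed in E1KD against NMuMG or in L1P or L2P against E1KD, and in M1P against E1KD A2m rose by 0.55 (0.0197; 0.32 and 0.325 with M1P array 3 alone, up to 0.0694 without any one E1KD array or M1P array 1).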

How the data were processed

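Gene expression was measured in 15 samples of 5 mouse lines. The deposited table holds log2 signals for 45101 probe sets and was taken without further normalization. RMA, MAS5 and the Affymetrix Expression Console are named in the submitters' processing notes; no version or genome build is given in the sources used here. Per the labels' protocols, 100 ng of total RNA was labelled from the 3' end. Arrays carry no read depth; 3 arrays per line limit the precision, and no detection calls were used.

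Gene names came from the platform annotation, updated by Entrez identifier through RefSeq (34741 matched). Controls (64) and probe sets with several symbols (932) or none (9160) were left out. limma 3.58.1 in R 4.3.3 fitted 1 coefficient per line to all 15 arrays (10 residual and 2.98 prior degrees of freedom), with two-sided moderated tests of 10 pairs and Benjamini-Hochberg adjustment over 18193 genes, or over 34945 probe sets for single probe sets. The fit was tested on simulated data.

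Members and lists were chosen with earlier results of these data known. Named genes were the members, the passing list genes of largest change (at most 3 each way), and, for members whose line means span at least 2 log2 units, the 3 genes with the highest correlation; the neighbours of the gene cluster and Ptprc were named besides. The surface partner, activator, inhibitor, AP-1 and family lists and the epithelial, fibroblast, endothelial, leukocyte and neutrophil markers were written by hand.

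Same-numbered arrays were checked for pairing by the correlation of their deviations from the line means: it was over 0.1 for all 3 numbers only between L2P and M1P (0.75, 0.13 and 0.69).

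Alternatives were quantile normalization, the most variable probe set, only the lines compared, array weights, a filter at the median level, a prior variance following the level, the replicate number as a block, each array left out, M1P as array 3 alone, and, chosen after seeing the data, the mean of a gene's probe sets.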

Additional observations from a re-analysis of the deposited data

Results flagged for a closer look

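The change from E1KD differed between the tumour line and a lung line, by a direct test of the lung line against M1P, in 8 cases. In L1P against M1P the differences of the log2 changes were 3.62 for Mmp13 (adjusted p = 0.00339), 0.92 for Mmp10 (0.00844), 0.99 for Adam8 (0.0322), -0.34 for Adam19 (0.0316) and -0.35 for Mmp9 (0.0458). In L2P against M1P they were 3.42 for Mmp13 (0.0053), 0.83 for Mmp10 (0.015) and -0.42 for Adam19 (0.0182). All of these use the M1P arrays, and with M1P as array 3 alone only Adam8 in L1P against M1P passed. Groups of 3 arrays were too small to look for single outlying arrays.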

How the results depend on the processing

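Of 2350 values of single genes under alternatives, 2190 stayed on their side of the threshold, 110 no longer passed, 50 newly passed, and none that passed changed sign. The number of members passing in E1KD against NMuMG was 3, with array weights 5, and 3 to 4 with 1 array left out. In M1P against E1KD it was 5, with M1P array 3 alone 0, with only the 2 lines 0, with the most variable probe set 3, and 0 to 6 with 1 array left out. In L1P against E1KD it was 2, with array weights 4, with the filter at the median level 1, with M1P array 3 alone 4, with only the 2 lines 4, and 2 to 3 with 1 array left out. In L2P against E1KD it was 4, with the mean of probe sets 2, and 2 to 4. In L2P against L1P it was 0 throughout. In L1P against M1P it was 5, with array weights 3, the filter 2, M1P array 3 alone 1, only the 2 lines 0, quantile normalization 2, and 2 to 5. In L2P against M1P it was 3, with the filter 1, M1P array 3 alone 0, only the 2 lines 0, and 1 (without L2P array 2) to 5 (without M1P array 3). Against NMuMG it was 2 in M1P (M1P array 3 alone 1, only the 2 lines 1, 2 to 3 otherwise), 2 in L1P (array weights 5, the filter 1, M1P array 3 alone 4, only the 2 lines 5, 2 to 4 otherwise) and 2 in L2P (array weights 6, the filter 1, 2 to 4 otherwise). By the F test it was 7, with the mean of probe sets 4, the most variable probe set 4, and 5 to 6 with 1 array left out. With the replicate number as a block 4 passed in L1P against NMuMG, among them Adam8 (adjusted p = 0.0272). The samples of the lines share only a number. The share of all genes passing in M1P against E1KD went from 27.6% to 4.45% with M1P array 3 alone and 0.368% with only the 2 lines. The filter removed Mmp3, Mmp9, Mmp10, Adam19 and Timp3 from the test. The causes of these changes were not tested. Low signals limit what can be read for Mmp3, Mmp9, Adam19 and Timp3.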
